A study of Mus musculus with 28 samples.

Results

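The gastric corpus is the acid-secreting body of the stomach, and transcripts of its manually scraped epithelium were compared between villin-PPARD transgenic mice of 25 weeks (4 mice) and of 10 weeks (5 mice). These 9 libraries, 1 per mouse, are the villin-PPARD libraries of those ages as the labels give them, out of 28 libraries in the series, and every gene in the count table was considered. The transgene places the peroxisome proliferator-activated receptor delta, PPARD, under the villin promoter, which is best known for its activity in intestinal epithelium. All 9 mice carry it, so the comparison is one of age within 1 genotype. Wild-type (WT) littermates of 10 weeks (5 mice) and of 25 weeks (4 mice) give the same step in age without the transgene, and villin-PPARD mice of 55 weeks (5 mice) are given as levels only. The labels number the samples without naming animals, strain or sex, so p-values measure the spread between these samples, taken here as 1 mouse each. For the gene tests that spread was estimated over all 28 libraries, those of 55 weeks included.

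PPARD is a nuclear receptor that binds fatty acids and their derivatives and, paired with the retinoid X receptor, switches on genes of lipid uptake, storage and oxidation. The corpus gland holds acid-secreting parietal cells, zymogen-secreting chief cells, mucous neck cells, mucus-producing pit cells at the surface, hormone-secreting endocrine cells and dividing progenitors. When parietal and chief cells are lost or damaged, the gland can turn to a mucous, CD44-positive state called spasmolytic polypeptide-expressing metaplasia (SPEM), and the villin-PPARD line has been used to study gastric tumour formation.

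Total counts were 17237529 to 23503643 in the transgenic mice of 10 weeks and 12812119 to 21945415 in those of 25 weeks, replicate 4 being the shallowest. Of 49492 gene symbols, 15812 passed the count filter and were tested. The scrapings carried epithelial transcripts at both ages: Epcam, an epithelial adhesion molecule, was at 304 ± 24.3 CPM (SD, n = 5) and 349.5 ± 43.9 CPM (SD, n = 4), against 3.0 ± 0.592 CPM and 4.79 ± 2.05 CPM for Ptprc, the pan-leukocyte CD45. Defining markers of corpus cells were present in all 9 libraries, with the pepsinogen Pgc at 13950 CPM or more and the proton pump subunit Atp4a at 2559 CPM or more. CPM are read counts relative to the TMM-scaled total of the library. The receptor itself did not pass the test between ages. Ppard was at 125, 112, 101, 108 and 102 CPM in replicates 1 to 5 of 10 weeks and at 79.7, 87.8, 95.2 and 99.6 CPM in replicates 1 to 4 of 25 weeks (log2 difference -0.27, SE 0.10, edgeR adjusted p = 0.0985), every older mouse being below every younger one. In WT mice it was at 74.1 ± 8.18 CPM and 73.2 ± 9.05 CPM. Vil1, whose promoter drives the transgene, was at 142 ± 24.9 CPM (SD, n = 5) and 160.5 ± 53.3 CPM (SD, n = 4) and did not pass either (adjusted p = 0.631). A count per gene symbol cannot tell the transcripts of the transgene from those of the mouse's own gene.

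Between 10 and 25 weeks 445 genes changed in the transgenic corpus, 2.81% of the genes tested (edgeR quasi-likelihood F test, two-sided, Benjamini-Hochberg adjusted p under 0.05, which is what called means below). Of these 315 rose (1.99%) and 130 fell (0.822%). At least 2-fold changes were called for 95 genes that rose (0.601%) and 16 that fell (0.101%). The median log2 difference was 0.69 among genes that rose, -0.49 among those that fell and 0.0028 over all genes tested, so most called changes were smaller than 2-fold. The 5 younger and 4 older mice did not overlap in 1443 genes (9.13%), 784 of them higher (4.96%) and 659 lower (4.17%) at 25 weeks, and 335 of the called genes (2.12% of those tested) were among these. By the column headers replicates 4 and 5 of 10 weeks are of a second library group and the other 7 mice of the first. A fit that left out the second-group libraries of 10 weeks, those of WT mice included, called 123 genes (104 higher). With a term for library group 208 were called (153 higher). With library totals alone as the scaling 862 genes rose and 52 fell. The excess of rises was smaller or absent in some other fits. DESeq2 called 621 higher and 525 lower, and edgeR without replicate 3 of 25 weeks 949 and 913. Limma-voom, used throughout with a quality weight for each library, called 1480 and 1481, and the part of the weights was not tested. As a share of the calls the excess was larger in other fits, with 71 higher and 12 lower without replicate 4 of 25 weeks and 65 and 13 without replicate 1.

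**Figure D1:**
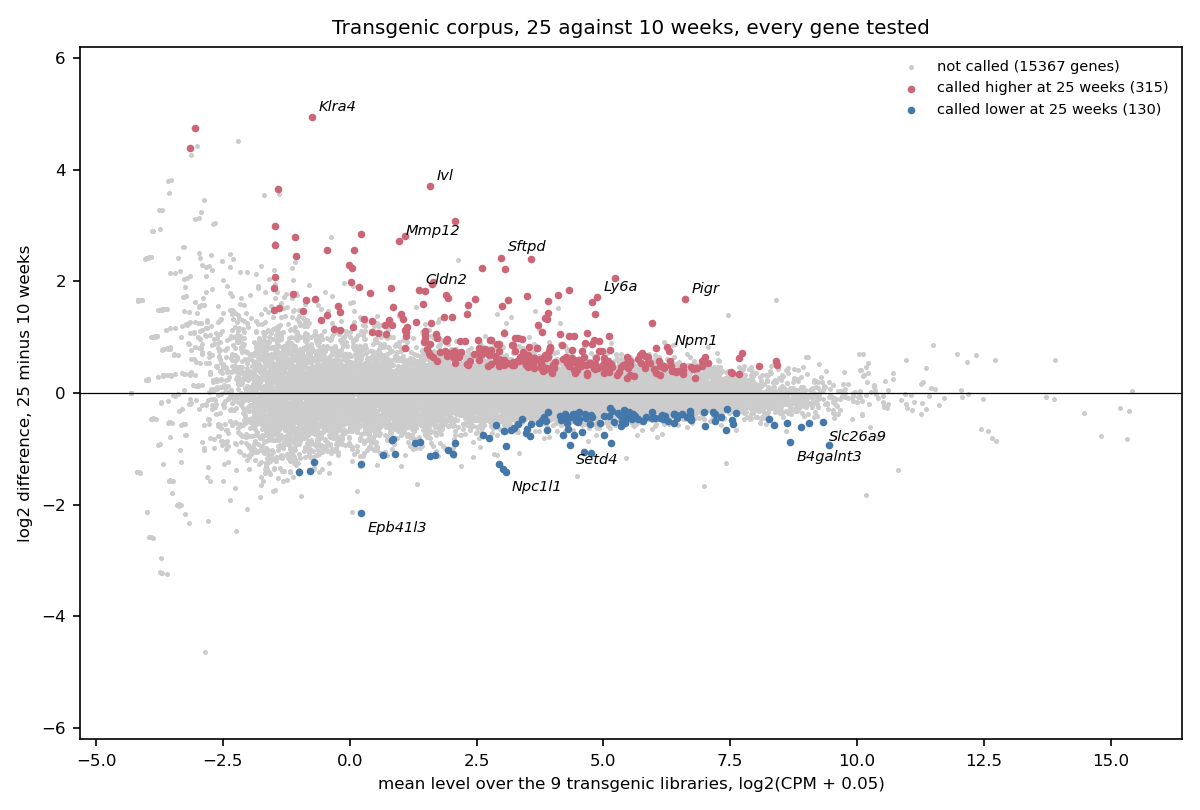
Log2 difference between 25 and 10 weeks in transgenic mice (vertical) against the mean level over the 9 libraries (horizontal, log2 of CPM + 0.05), 1 point per gene tested. The 315 genes called higher reach larger differences than the 130 called lower, and the genes with the largest rises have low mean levels.

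The 4 mice of 25 weeks differed among themselves more than those of 10 weeks. The median SD of log2 CPM was 0.251 at 25 weeks and 0.189 at 10 weeks, and 63.27% of genes had the larger SD at 25 weeks. Over the genes called higher, replicates 1 to 4 of 25 weeks lay 0.915, 0.806, 0.484 and 1.172 above the mean of the younger mice on the log2 scale, values whose sign the call itself fixes. Replicate 4 was the highest of the 4 in 145 of the 315 genes and replicate 3 the lowest in 189. On the first principal component of the 9 libraries (32.5% of the variance) replicate 3 stood at -14.3, within the range of the younger mice, and replicates 1, 2 and 4 at 32.9, 25.7 and 48.9. The count of calls moved with single mice: it was 1862 without replicate 3 of 25 weeks, 83 without replicate 4, 78 without replicate 1 and 205 without replicate 2. It was 87, 64, 750 and 263 without replicates 1, 2, 3 and 5 of 10 weeks, and 38 genes (33 that rose and 5 that fell) were called in each of the 9 fits that left out 1 mouse.

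Base composition moved with the calls. Genes that rose had a median GC content of 43.5% in their longest transcript and genes that fell one of 56.5%, against 49.7% over the genes tested. Of 5 equal bins by GC content, 161 genes rose and 0 fell in the lowest, and 17 rose and 77 fell in the highest. GC-poor genes stood higher relative to GC-rich genes in all 4 mice of 25 weeks (0.575, 0.491, 0.247 and 0.393 on the log2 scale, against the mean of the younger mice) than in all 5 of 10 weeks (-0.265, -0.186, 0.233, 0.107 and 0.109). In WT mice the same quantity ran from -0.17 to 0.271 at 10 weeks and from -0.305 to 0.393 at 25 weeks. After a correction for GC content in each library, added after the data had been seen, 188 genes were called, 143 of them among the 445 (110 that rose and 33 that fell). The part of base composition in the calls was not tested further. Of the 83 named genes that were called 44 remained so with the correction, and 33 to 78 in the fits that left out 1 mouse.

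**Figure D2:**
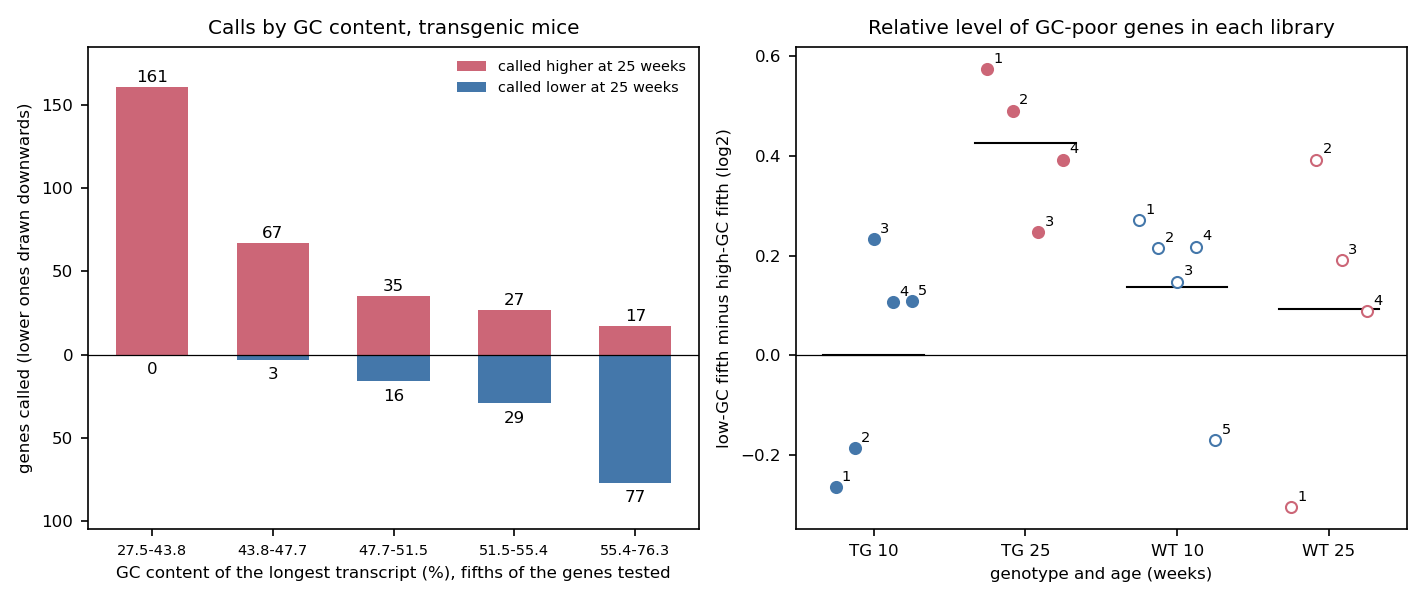
Left, number of genes called higher (up) and lower (down) at 25 weeks in each of 5 bins of GC content. Right, level of the GC-poorest bin relative to the GC-richest bin in each library, numbered by replicate, with group means as bars; TG, villin-PPARD. The 4 transgenic mice of 25 weeks lie above the 5 of 10 weeks, by the smallest margin in replicate 3.

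Several of the largest rises were of genes for matrix breakdown, squamous differentiation and barrier function, and they were uneven among the older mice. Among 24 tested genes of matrix remodelling and invasion 5 rose and 0 fell. Their median log2 difference was 0.59, beside 1.99% called higher and a median of 0.0028 over all genes tested. Mmp12, the macrophage elastase (chr9:7344381-7369499, build GRCm38 as are all positions here), was at 0.693, 0.42, 0.624, 0.746 and 0.165 CPM in the younger mice and 5.11, 1.6, 0.898 and 7.0 CPM in the older ones. All 4 older mice exceeded all 5 younger ones, replicates 1 and 4 by far the most, and the log2 difference was 2.72 (SE 0.48, adjusted p = 0.00658). Mmp10, a stromelysin from the same stretch of chromosome 9 (chr9:7502352-7510240), went from 1.7, 2.4, 2.14, 3.12 and 1.76 CPM to 13, 8.44, 1.62 and 20.4 CPM. Replicate 3 of 25 weeks lay within the younger mice here, and the other 3 lay above them (log2 difference 2.24, SE 0.46, adjusted p = 0.0154).

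Mmp13, a collagenase (chr9:7272514-7283331), and Mmp3, another stromelysin (chr9:7445822-7455975), rose by 2.81 and 2.57 (adjusted p = 0.0165 and 0.0237). Itga2, the collagen-binding integrin alpha 2, was at 3.4, 2.28, 1.43, 4.65 and 3.74 CPM and then 12.5, 12.6, 2.02 and 32.1 CPM (log2 difference 2.22, SE 0.46, adjusted p = 0.0154). For all 3 genes replicate 3 of 25 weeks fell within the range of the younger mice and replicate 4 was the highest. Mmp9, the gelatinase kept in a list of neutrophil genes, rose by 1.88 (adjusted p = 0.00878). Of 8 tested genes of the neutrophil list 1 rose and 0 fell (background 1.99% called higher). Of these 8 genes 7 had a log2 difference above 0, and the median was 0.91, or 0.59 without replicate 4 of 25 weeks. Their summed level was low, 1.134 to 2.063 CPM at 10 weeks and 1.526 to 7.521 CPM at 25 weeks. S100a8, which marks neutrophils, had 0 counts in all 9 libraries and S100a9 at most 0.063 CPM. Without replicate 4 of 25 weeks only Mmp12 of the 5 matrix genes was called and the median of the matrix list was 0.30. Without replicate 3 the matrix list held 13 calls, all higher. With the GC correction all 5 matrix genes remained called. In a fit of the compared transgenic libraries alone the count filter kept 23 matrix genes, of which 2 were called. It kept 2 of the 8 neutrophil genes, of which 1 was called.

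The squamous list holds keratins and envelope proteins of the forestomach. Of its 16 tested genes 2 rose and 0 fell (background 1.99% called higher), and the median log2 difference was 0.71. In a fit of the compared transgenic libraries alone the count filter kept 7 of the 16, with 2 called higher and a median of 0.37. Ivl, involucrin of the cornified envelope (chr3:92570902-92573735), was at 0.189, 0.72, 0.401, 0.395 and 0.44 CPM and then 2.06, 1.25, 0.853 and 20.2 CPM. All older mice were above all younger ones, but replicate 4 alone stood near 20 CPM, and the log2 difference of 3.71 (SE 0.76, adjusted p = 0.0154) became 1.69 without it and was no longer called (adjusted p = 0.0722). Krt13, a keratin of stratified epithelium, was at 1.39, 1.62, 1.6, 1.01 and 1.21 CPM and then 3.25, 4.16, 2.78 and 1.64 CPM (log2 difference 1.13, SE 0.30, adjusted p = 0.0365), with replicate 4 the lowest of the older mice. The basal squamous keratins did not pass the test: Krt5 was at 0.146 ± 0.144 CPM (SD, n = 5) and 0.722 ± 0.591 CPM (SD, n = 4), and Krt14 gave 1 count over the 5 younger mice and 28 over the 4 older ones. The summed level of the list was 117.8 to 126.1 CPM at 10 weeks and 137.4 to 288.6 CPM at 25 weeks. Whether forestomach epithelium in the scrapings took part in these 2 calls was not tested.

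Among 16 claudins and junction genes Cldn2 and Cldn4 rose and 0 fell (background 1.99% called higher). Cldn2, which forms cation-permeable pores, was at 0.63, 1.38, 1.16, 1.45 and 0.935 CPM and then 2.39, 3.82, 1.79 and 9.23 CPM, without overlap between the ages (log2 difference 1.84, SE 0.38, adjusted p = 0.0154). Cldn4, a sealing claudin, was at 8.35 ± 3.76 CPM and 21.7 ± 15 CPM with overlapping mice (log2 difference 1.35, SE 0.37, adjusted p = 0.0466). Neither remained called without replicate 4 of 25 weeks, where the differences were 1.22 and 0.81 (adjusted p = 0.0676 and 0.209).

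Sftpd, the collectin surfactant protein D (chr14:41172214-41185149), was at 1.95, 2.7, 2.18, 3.82 and 2.26 CPM and then 9.75, 8.67, 4.26 and 35.2 CPM (log2 difference 2.43, SE 0.39, adjusted p = 0.00417). Basp1, a membrane-attached protein first found in brain, was at 6.93, 7.02, 7.88, 10.8 and 8.64 CPM and then 19.3, 21.2, 11.7 and 61.2 CPM (log2 difference 1.76, SE 0.33, adjusted p = 0.00996). In both genes every older mouse was above every younger one and replicate 4 was the highest. Each was called whichever mouse was left out and with the GC correction, although without replicate 4 the differences shrank to 1.53 and 1.07.

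Ly6a, the stem cell antigen Sca-1, was at 15.2, 14, 11.4, 17.4 and 14.2 CPM and then 85.8, 27.3, 17.9 and 59.8 CPM (log2 difference 1.72, SE 0.36, adjusted p = 0.0168), with replicate 1 the highest. Inhba, the activin A subunit, and Anxa8, an annexin, rose by 1.79 and 2.29 (adjusted p = 0.0226 and 0.0377). Anxa8 stood apart in 1 mouse: it was at 0.526, 0.57, 0.718 and 5.06 CPM in the older mice, and without replicate 4 its difference was 0.94 (adjusted p = 0.256). Scarna17, a small Cajal body RNA, was at 1.83, 2.28, 1.34, 1.67 and 1.87 CPM and then 7.5, 7.02, 2.47 and 7.22 CPM (log2 difference 1.75, adjusted p = 0.0224), and here replicate 3 was the low one. Ly6a, Inhba and Scarna17 were each lost without several single mice, and Inhba and Anxa8 with the GC correction (adjusted p = 0.0596 and 0.056).

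Klra4, the natural killer cell receptor Ly49D (chr6:130043731-130067271), also rose (adjusted p = 0.00658). It had 3 counts in the younger mice, all in replicate 4, and 77 counts in the older ones. Its level in the older mice was 0.812, 0.627, 0.449 and 2.9 CPM. The ratio of the group totals was 33.2-fold, with a 95% counting interval of 10.9 to 165 that covers counting error only. Other T and natural killer cell genes did not follow: 0 of 8 tested were called, and their summed level was 1.756 to 2.818 CPM at 10 weeks and 2.424 to 3.649 CPM at 25 weeks. Only 1 of these 8 passed the count filter when the compared transgenic libraries were taken alone. Klra4 belongs to a cluster of near-identical genes, so the assignment of its reads is uncertain.

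**Figure D3:**
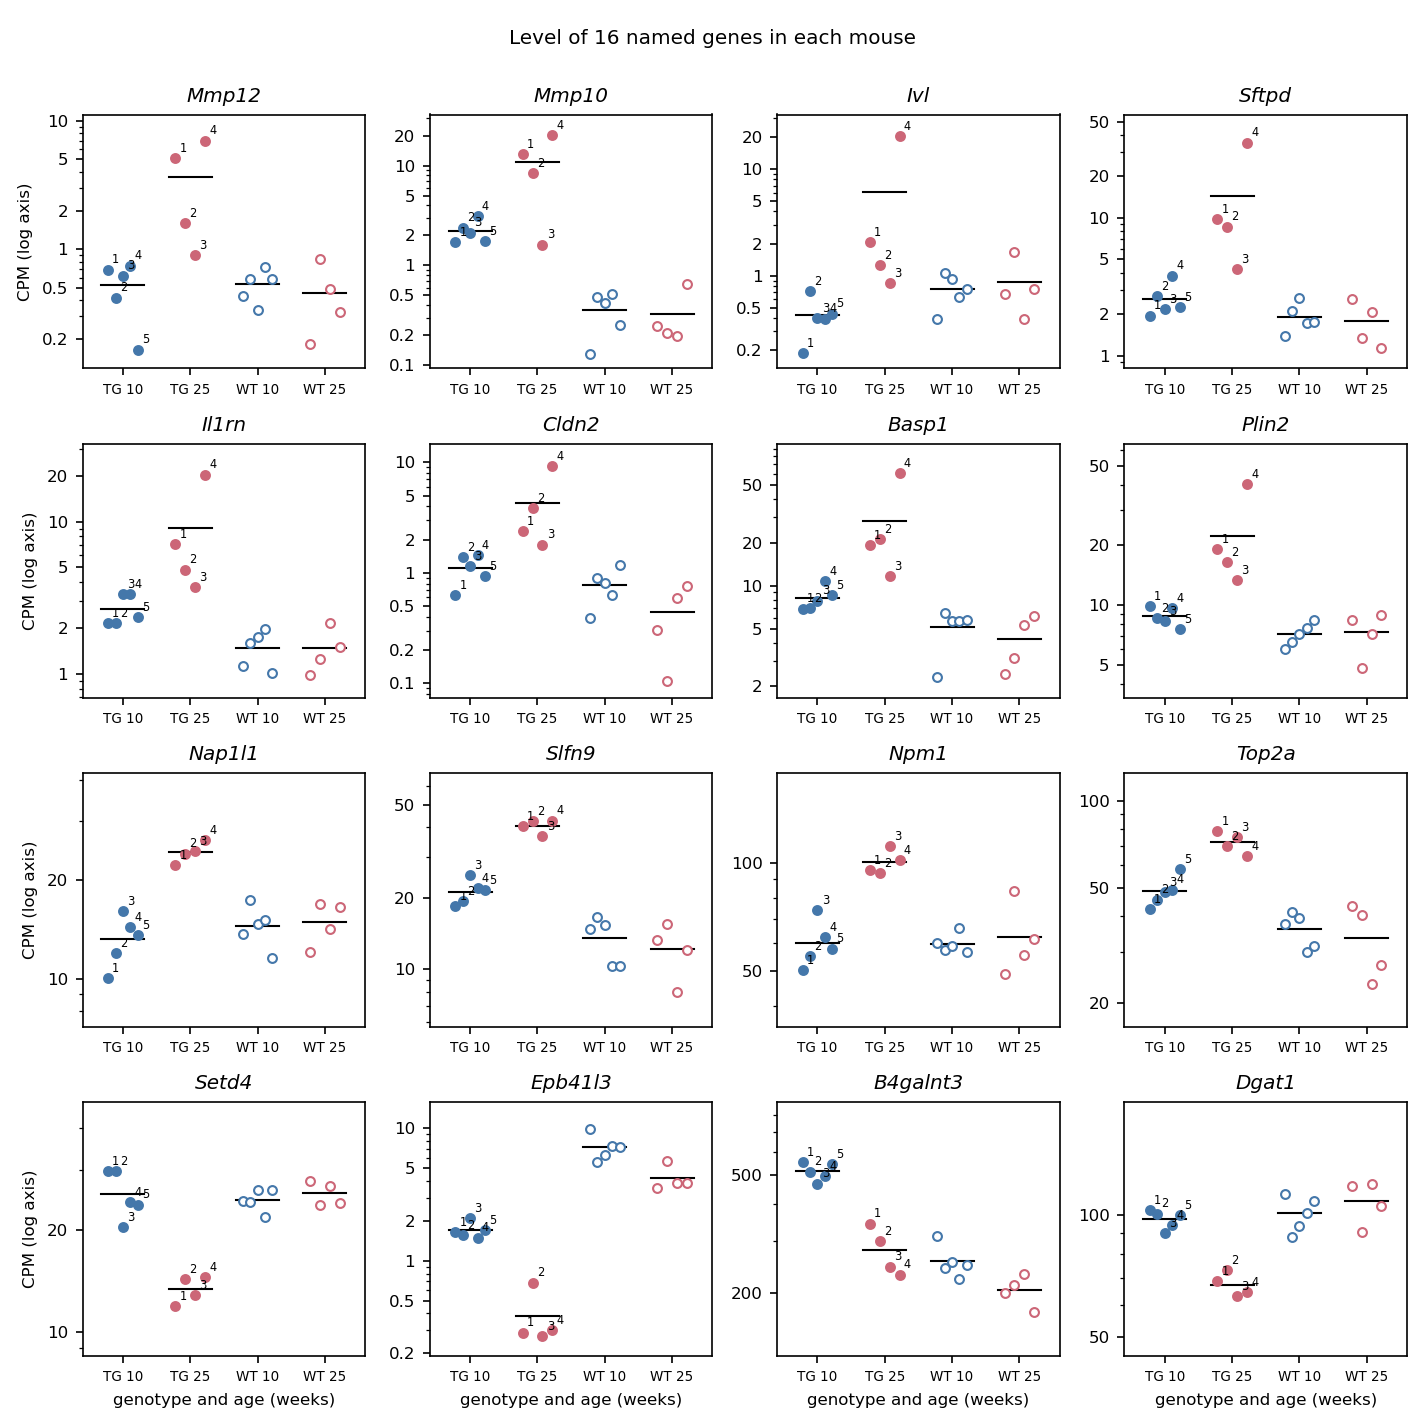
CPM (log axis) of 16 named genes in each transgenic (TG, filled, numbered by replicate) and wild-type (WT, open) mouse of 10 and 25 weeks, with group means as bars. In the upper 2 rows replicate 4 of 25 weeks is the highest mouse and the others spread down towards the younger ones, whereas in Nap1l1, Slfn9, Npm1, Setd4 and Dgat1 the 4 older mice lie close together and apart from the 5 younger ones.

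Several genes with low adjusted p-values had smaller differences. Nap1l1, a histone chaperone (chr10:111473223-111498150), was at 10.1, 12, 16, 14.4 and 13.6 CPM in the younger mice and 22.1, 24, 24.4 and 26.3 CPM in the older ones. The groups were well apart, and the log2 difference was 0.87 (SE 0.13, adjusted p = 0.00103). Slfn9, of the Schlafen family, went from 21.4 ± 2.54 CPM (SD, n = 5) to 40.6 ± 2.83 CPM (SD, n = 4) (log2 difference 0.92, SE 0.14, adjusted p = 0.00134). Fam111a, a protease that acts at replication forks, went from 11.4 ± 0.899 CPM (SD, n = 5) to 20.2 ± 2.64 CPM (SD, n = 4) (log2 difference 0.82, SE 0.13, adjusted p = 0.00134). Neither gene overlapped between the ages.

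Npm1, the nucleolar protein nucleophosmin (chr11:33152287-33163206), was at 50.3, 55.1, 74, 62.1 and 57.8 CPM and then 95.4, 93.8, 111 and 102 CPM (log2 difference 0.75, SE 0.13, adjusted p = 0.00572). Here replicate 3 was the highest of the older mice and all 4 lay above the younger ones. Aim2, the cytosolic DNA sensor of an inflammasome (chr1:173350879-173466040), was at 19.2, 15.2, 13.6, 20.3 and 17.3 CPM and then 35.6, 37.6, 23.2 and 48.1 CPM (log2 difference 1.07, SE 0.17, adjusted p = 0.00206). Ifi202b, a related HIN-200 gene nearby on chromosome 1 (chr1:173962568-173982744), was at 0.399 ± 0.118 CPM and 1.68 ± 0.839 CPM (log2 difference 2.0, SE 0.33, adjusted p = 0.00341). These 6 genes were called in every fit that left out 1 mouse and with the GC correction.

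The 38 genes called in each of those fits also held genes outside the naming rule, picked here after their values were seen. Ncl, nucleolin, rose by 0.64, and Dkc1, the pseudouridine synthase of ribosome and telomerase assembly, by 0.69 (adjusted p = 0.00878 and 0.0106). The condensin subunits Smc2 and Smc4 rose by 0.80 and 0.96 (adjusted p = 0.00984 and 0.00878). Chek1, the S-phase checkpoint kinase, rose by 1.18, Ect2, which directs cytokinesis, by 0.81, and Esco2, a cohesin acetyltransferase, by 0.94 (adjusted p = 0.0136, 0.00984 and 0.0106). Smc4 was at 14.4, 14.3, 23.1, 21.6 and 25.6 CPM in the younger mice and 40.1, 38.5, 38.9 and 36.8 CPM in the older ones, so that the 4 older mice were nearly level while the younger ones were spread below them. With the GC correction 6 of these 7 genes remained called, and Smc2 did not (adjusted p = 0.0523).

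More genes of cell division rose than fell, with small differences. Of 26 tested mitosis genes 10 rose and 0 fell, all 26 had a log2 difference above 0, and the median was 0.40. Of 28 tested DNA replication genes 7 rose and 0 fell, 26 were above 0 and the median was 0.30. The background over all genes was 1.99% called higher. The summed level of the mitosis list was 396.1 to 459.4 CPM in the younger mice and 525.2 to 593.8 CPM in the older ones, and that of the replication list 308.1 to 326.2 and 357.8 to 417.3 CPM. Replicate 3 of 25 weeks was the highest for both sums.

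Top2a, the topoisomerase that untangles sister chromatids (chr11:98992943-99024189), was at 42.2, 45.5, 48.4, 49.3 and 58.1 CPM in the younger mice and 78.5, 69.8, 74.9 and 64.6 CPM in the older ones. No older mouse overlapped a younger one, and the log2 difference was 0.56 (SE 0.13, adjusted p = 0.0214). Among spindle and checkpoint genes, Cenpe, a kinetochore motor, rose by 0.64, Bub1 and Mad2l1, which hold back anaphase, by 0.81 and 0.72, and Ndc80, which binds microtubules, by 0.80 (adjusted p = 0.0147, 0.0201, 0.021 and 0.0281). Kif23, a motor of the central spindle, Cenpf, Ccna2, Tpx2 and Nusap1 rose by 0.54, 0.50, 0.57, 0.45 and 0.54. Mki67, the common proliferation marker, was at 123 ± 8.45 CPM (SD, n = 5) and 157 ± 16.9 CPM (SD, n = 4) and did not pass (log2 difference 0.35, SE 0.16, adjusted p = 0.188).

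Among replication genes, Cdc6, which loads the replicative helicase, was at 7.12, 8.94, 7.44, 7.46 and 7.04 CPM and then 11.8, 11.3, 9.2 and 12.7 CPM (log2 difference 0.56, SE 0.13, adjusted p = 0.0188), with no overlap between ages. Ccne2 and Ccne1, the cyclins of entry into S phase, rose by 1.11 and 0.58 (adjusted p = 0.0281 and 0.0403). Rrm1 and Rrm2, the subunits of ribonucleotide reductase, rose by 0.45 and 0.50, Mcm4, a helicase subunit, by 0.42, and Pola1, the primase-associated polymerase, by 0.57. Ccnd1, cyclin D1 from the list of Wnt targets, rose by 0.50 (adjusted p = 0.0224). With the GC correction none of the 10 mitosis genes remained called, although Aurka, a mitotic kinase not called before (adjusted p = 0.0575), was (adjusted p = 0.0484). Of the replication genes Cdc6 and Ccne1 remained called, and the medians of the 2 lists were 0.37 and 0.28. Without replicate 1 of 10 weeks the higher calls were 1 and 0, without replicate 2 they were 1 and 1, and without replicate 1 of 25 weeks 1 and 1. Without replicate 4 of 25 weeks they were 4 and 2, and in the other fits that left out 1 mouse 7 to 9 and 2 to 9. In the fits without replicate 3 of 10 weeks and without replicate 3 of 25 weeks 1 replication gene was also called lower in each.

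The promoters of 3 of these genes are shown because they hold motifs that are known for timing transcription to the cell cycle. Each is the 300 bases around the annotated start in RefSeq (GRCm38.p6), 5′ to 3′ on the gene's strand, with matches in capitals on either strand: the CCAAT box (CCAAT or ATTGG), the cell-cycle homology region (TTTGAA or TTCAAA) and the E2F site (GCGGGAA or TTCCCGC). Top2a lies at chr11:99024140-99024439, Kif23 at chr9:61946750-61947049 and Cdc6 at chr11:98907901-98908200.
Top2a: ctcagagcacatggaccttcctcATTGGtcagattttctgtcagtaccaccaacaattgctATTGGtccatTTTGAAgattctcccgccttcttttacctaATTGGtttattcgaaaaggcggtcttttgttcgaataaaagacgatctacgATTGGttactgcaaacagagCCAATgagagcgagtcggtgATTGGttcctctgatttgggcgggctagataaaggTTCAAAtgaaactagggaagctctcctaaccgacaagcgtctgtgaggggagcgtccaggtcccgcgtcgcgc
Kif23: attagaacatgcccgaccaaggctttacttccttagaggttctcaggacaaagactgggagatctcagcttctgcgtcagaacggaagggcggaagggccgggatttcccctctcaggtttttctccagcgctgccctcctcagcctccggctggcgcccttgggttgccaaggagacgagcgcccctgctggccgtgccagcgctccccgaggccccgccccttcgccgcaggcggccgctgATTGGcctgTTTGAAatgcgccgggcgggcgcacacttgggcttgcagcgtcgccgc
Cdc6: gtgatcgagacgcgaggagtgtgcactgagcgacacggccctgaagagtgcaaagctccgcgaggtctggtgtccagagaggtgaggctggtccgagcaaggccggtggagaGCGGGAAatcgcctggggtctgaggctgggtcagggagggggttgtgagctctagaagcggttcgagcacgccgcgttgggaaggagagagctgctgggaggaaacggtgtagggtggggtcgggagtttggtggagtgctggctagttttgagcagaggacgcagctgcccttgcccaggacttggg
The Top2a window held both CCAAT and TTTGAA letters, several times over, the Kif23 window 1 of each near its end, and the Cdc6 window a GCGGGAA. Of the 13 called mitosis and replication genes that have a promoter sequence 8 held a CCAAT box, 4 a TTTGAA and 3 a GCGGGAA. Over the 47 windows of all tested members of both lists the shares were 72.3%, 40.4% and 25.5%, against 37.2%, 12.2% and 7.7% of the 14031 windows of tested genes and 37.4%, 17.9% and 4.6% of all 32851 windows. The matches describe letters in these windows, not sites in use.

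Transcripts of the cells that make acid and zymogens were lower on average at 25 weeks, and few of them passed the test. Of 22 parietal cell genes 19 had a log2 difference below 0 and 2 fell, with a median of -0.25 (background 0.822% called lower). Slc26a9, a chloride channel and transporter of gastric epithelium, was at 879, 770.2, 655, 679 and 728 CPM and then 626, 553, 392 and 499.7 CPM (log2 difference -0.52, SE 0.14, adjusted p = 0.0377). Slc4a2, the basolateral anion exchanger of acid secretion, was at 552, 562, 518, 525 and 655 CPM and then 345, 403, 446 and 275 CPM (log2 difference -0.61, SE 0.16, adjusted p = 0.0341). The ages did not overlap in either, and neither was called with the GC correction (adjusted p = 0.0812 and 0.099) or without replicate 4 of 25 weeks (0.0964 and 0.121). Atp4a and Atp4b, the proton pump, did not pass: Atp4a was at 6562, 6982, 6301, 5804 and 7297 CPM and then 3944, 4482, 5906 and 2559 CPM (log2 difference -0.64, SE 0.26, adjusted p = 0.144), replicate 4 being the lowest and replicate 3 within the younger mice, and Atp4b had -0.38 (adjusted p = 0.456). Kcnq1, the potassium channel that the pump works with, and Hrh2, the histamine receptor that starts secretion, had -0.49 and -0.50 (adjusted p = 0.0805 and 0.085), and in both every older mouse was below every younger one.

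All 10 tested chief cell genes had a log2 difference below 0, the median was -0.58 and 0 were called. Pgc, pepsinogen C, was at 48210, 59860, 52070, 44680 and 49950 CPM in the younger mice and 23010, 28770, 49970 and 13950 CPM in the older ones. Replicate 3 lay within the younger mice and replicates 1, 2 and 4 far below them, and the difference of -0.82 (SE 0.38) did not pass (adjusted p = 0.2). Gif, gastric intrinsic factor, showed the same order of mice with 839.8, 1162, 1353 and 501 CPM against 1667 ± 238 CPM at 10 weeks (log2 difference -0.79, SE 0.39, adjusted p = 0.234), as did Clps, colipase, with 3311, 4550, 8976 and 1999 CPM against 8497 ± 1369 CPM (-0.85, SE 0.39, adjusted p = 0.199). Bhlha15, also called Mist1, the transcription factor of zymogen cells, was at 17.7 ± 4.03 CPM and 9.91 ± 5.89 CPM (adjusted p = 0.163). The summed chief cell level was 54410 to 72750 CPM at 10 weeks and 28270, 35400, 59850 and 17100 CPM in replicates 1 to 4 of 25 weeks. Without replicate 3 the list held 2 calls, both lower, and a median of -0.91, and the parietal list 6 and -0.38. Without replicate 4 the parietal median was -0.15. In scraped tissue fewer cells of a type and less RNA per cell cannot be told apart.

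Pit cell genes were near their 10-week levels, with 0 of 16 called and a median of -0.13. Muc5ac, the surface mucin, was at 25320 ± 2894 CPM (SD, n = 5) and 19790 ± 5489 CPM (SD, n = 4) (adjusted p = 0.432). Gkn1 and Tff1, secreted by the same cells, had log2 differences of -0.27 and -0.32 (adjusted p = 0.478 and 0.244). Endocrine genes gave 0 calls among 19 and a median of -0.19. Sst, somatostatin, was at 64.1 ± 9.54 CPM and 46.3 ± 22.6 CPM and Ghrl, ghrelin, at 333 ± 80.1 CPM and 254 ± 111 CPM (adjusted p = 0.268 and 0.485).

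Of 18 genes of mucous neck cells and SPEM 4 rose and 0 fell (median 0.26, background 1.99% called higher). Cd44, the hyaluronan receptor that marks SPEM, was at 6.49, 8.1, 10.7, 9.75 and 10.2 CPM and then 16.1, 16.5, 10.6 and 35.7 CPM (log2 difference 1.1, SE 0.23, adjusted p = 0.0159). Replicate 4 was more than 2-fold above the other older mice and replicate 3 was within the younger ones. Cftr, the chloride channel, was at 0.819, 0.959, 1.34, 1.49 and 1.6 CPM and then 2.1, 3.65, 1.12 and 14.6 CPM (log2 difference 1.98, SE 0.47, adjusted p = 0.0269), and Pigr, which carries immunoglobulin A across epithelium, at 30.8, 38.6, 67.4, 46.6 and 62.3 CPM and then 239, 75.5, 44.2 and 273 CPM (1.68, SE 0.46, adjusted p = 0.049). Mal2, a protein of transcytosis, rose in all 4 older mice, which did not overlap the younger ones (log2 difference 0.62, SE 0.16, adjusted p = 0.0304). The neck mucin Muc6 and the trefoil peptide Tff2 did not move with them, at -0.03 and -0.28 (adjusted p = 0.966 and 0.436). None of the 4 was called without replicate 4 of 25 weeks, where the median of the list was 0.17, and with the GC correction Cd44 alone was (adjusted p = 0.0408). In a fit of the compared transgenic libraries alone 0 of the 17 genes that passed its count filter were called.

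**Figure D4:**
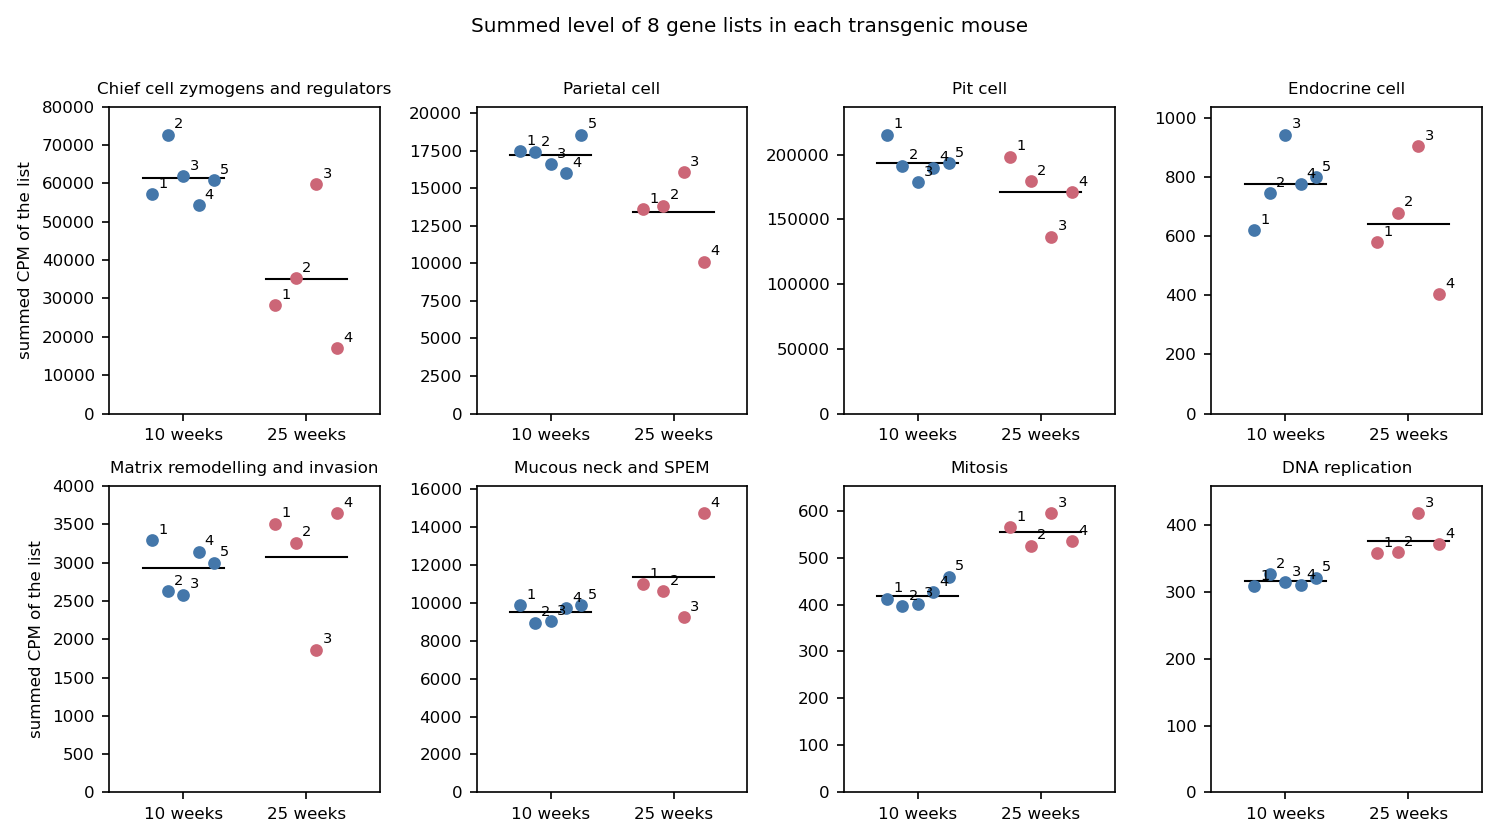
Summed CPM of 8 gene lists in each transgenic mouse, numbered by replicate, with group means as bars. In the chief, parietal and endocrine lists replicate 4 of 25 weeks is the lowest and replicate 3 lies within the younger mice, in the matrix list replicate 3 is the lowest, and in the mitosis and replication lists all 4 older mice lie above the 5 younger ones.

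Some genes of inflammation passed the test. Among 25 tested epithelial cytokines and chemokines 3 rose and 0 fell (background 1.99% called higher), and the median log2 difference was 0.31. Il1rn, the antagonist of the interleukin 1 receptor (chr2:24336853-24351494), was at 2.14, 2.16, 3.34, 3.34 and 2.37 CPM and then 7.12, 4.85, 3.73 and 20.4 CPM (log2 difference 1.69, SE 0.32, adjusted p = 0.00984), every older mouse above every younger one. Il1a, the agonist, gave 4 counts over the younger mice and 41 over the older ones (ratio 13.3-fold, 95% counting interval 4.8 to 51, adjusted p = 0.0269). It was at 0.43, 0.057, 0.0898 and 2.16 CPM in the older mice, so that replicate 4 carried most of it. Ccl20, which draws CCR6-bearing lymphocytes, was at 16.3, 14.6, 19.2, 18.8 and 19.8 CPM and then 41.9, 25.1, 14 and 52.9 CPM (log2 difference 0.90, SE 0.25, adjusted p = 0.0488), with replicate 3 below all the younger mice. Without replicate 4 of 25 weeks or with the GC correction Il1rn was the only one of the 3 still called. In a fit of the compared transgenic libraries alone the count filter kept 14 of the 25 genes, 0 were called and the median was 0.21.

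Interferon-induced genes gave 0 calls among 34, with a median of 0.06. Slfn4, a Schlafen gene of myeloid cells and SPEM, was at 932, 836, 752, 1143 and 980.2 CPM and then 1438, 1705, 608 and 1176 CPM (adjusted p = 0.356), and Ifi44 at 92.6 ± 11.8 CPM and 131 ± 39.8 CPM (adjusted p = 0.106). Duox2, an epithelial oxidase, had a log2 difference of -0.45, the growth factor Areg one of 0.45 and the surface keratin Krt20 one of 0.65 (adjusted p = 0.438, 0.293 and 0.192). The lists of macrophages, B and plasma cells, fibroblasts, endothelium, smooth muscle and red cells held 0 calls. The mast cell list held 1: Mcpt2, a mucosal mast cell protease, rose by 0.98 (adjusted p = 0.0353), and was not called with the GC correction (adjusted p = 0.0939). Summed macrophage and dendritic cell genes ran from 95.8 to 120.5 CPM at 10 weeks and from 96.2 to 172.5 CPM at 25 weeks, replicate 3 again the lowest of the older mice. The part of these cells in the calls was not tested.

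Lists of other regional and signalling genes held 1 call or none, where 2.81% of all genes tested were called in either direction. In the antral and duodenal list 1 of 6 tested genes rose: Onecut2, a transcription factor, was at 3.66, 2.58, 4.46, 5.44 and 3.63 CPM in the younger mice and 12.6, 13.3, 5.16 and 55.9 CPM in the older ones (log2 difference 2.4, SE 0.49, adjusted p = 0.0154). Replicate 4 stood far above the rest and replicate 3 lay within the younger mice, and without replicate 4 the gene was not called (adjusted p = 0.0877). Gast, the gastrin of antral G cells, was at most 1.98 CPM in any of the 9 libraries. Of 21 intestinal genes 0 were called and the median was -0.05. Alpi, the intestinal alkaline phosphatase, was at 9.77, 6.3, 9.93, 17.8 and 10.3 CPM and then 25.8, 26.5, 14.4 and 38.4 CPM, higher on average but not past the test (adjusted p = 0.133).

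The epidermal growth factor family gave 0 calls among 13. Ereg, epiregulin, was at 0.441, 0.42, 2.54, 0.922 and 0.991 CPM and then 2.87, 2.57, 0.539 and 5.88 CPM (adjusted p = 0.0939), with replicate 3 again at the level of the younger mice. Erbb2, a receptor of the family, was at 181 ± 21.2 CPM and 139 ± 16.3 CPM, lower in every older mouse (adjusted p = 0.0736). Genes of endoplasmic reticulum folding gave 0 calls among 24 and a median of 0.10. Hsp90b1, a chaperone there, was at 460.5, 500.2, 521, 503 and 549 CPM and then 938, 802, 558 and 611 CPM, higher in all 4 older mice with replicates 1 and 2 in the lead (adjusted p = 0.0529). B2m, the light chain of class I histocompatibility molecules, followed the same order with 3641, 2450, 1718 and 1982 CPM against 1619 ± 139.5 CPM at 10 weeks (adjusted p = 0.0556), and 0 of 12 genes of that list were called.

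Of the 26 tested PPAR targets and fatty acid oxidation genes, Plin2 alone rose, 0 fell and the median was -0.16. Plin2, the coat protein of lipid droplets (chr4:86648386-86670060), was at 9.83, 8.57, 8.24, 9.66 and 7.54 CPM and then 19, 16.4, 13.3 and 40.3 CPM (log2 difference 1.33, SE 0.23, adjusted p = 0.00572). Every older mouse was above every younger one, and the call held in each fit that left out 1 mouse and with the GC correction. Angptl4, a secreted inhibitor of lipoprotein lipase, and Pdk4, which holds back glucose oxidation, had 0.76 and 0.68 and did not pass (adjusted p = 0.093 and 0.17). Cpt1a, which admits fatty acids to mitochondria, had -0.14 (adjusted p = 0.528).

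Dgat1, which makes triglyceride (chr15:76502015-76511953), fell: it was at 103, 101, 90.3, 94.5 and 99.8 CPM and then 68.6, 73.1, 63 and 64.5 CPM, with no overlap (log2 difference -0.54, SE 0.11, adjusted p = 0.0128). Srebf1, the transcription factor of fatty acid synthesis, fell by 0.51 on the log2 scale (adjusted p = 0.0396). Dgat1 was called in each fit that left out 1 mouse, but neither was called with the GC correction (adjusted p = 0.056 and 0.19). Of 16 glycolysis genes 1 was called, Hk2, a hexokinase, with a rise of 0.75 (adjusted p = 0.0242).

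Mitochondrial genes split by genome without passing the test. The 14 tested mitochondrially encoded genes all had a log2 difference above 0 with a median of 0.64, and 26 of 30 nuclear-encoded respiratory chain genes lay below 0 with a median of -0.21. With the GC correction the median of the mitochondrially encoded genes was 0.31, and with a term for library group or without replicate 3 of 25 weeks 11 of the 14 lay above 0. None of either list was called in the main edgeR fit. Without replicate 3 of 25 weeks 18 of the nuclear-encoded genes were called lower and 1 mitochondrially encoded gene higher. Mitochondrially encoded genes took 3.04% ± 1.25 (SD, n = 5) of counts at 10 weeks and 5.00% ± 0.908 (n = 4) at 25 weeks (exact permutation test, two-sided, p = 0.03968, adjusted over 4 library measures 0.07937). The 10 most abundant genes took 27.7% ± 1.96 and 24.2% ± 1.07, without overlap (exact permutation p = 0.01587, adjusted 0.06349). In WT mice the mitochondrial share was 8.55% ± 2.78 and 10.5% ± 3.79.

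Stress and clock genes gave 4 calls between them, where 2.81% of all genes tested were called in either direction. Of 21 immediate early and heat shock genes 3 rose: Ier3 by 0.57, Klf6 by 0.71 and Hspa1b by 1.43 (adjusted p = 0.0339, 0.0472 and 0.0496), the last a near-identical copy of Hspa1a. Klf6 and Hspa1b were not called with the GC correction (adjusted p = 0.185 and 0.0596). Of 17 clock genes Cry2, a repressor of the clock, fell, from 25.3, 22.1, 21, 25.3 and 23.7 CPM to 11.2, 16.5, 14.8 and 18.1 CPM (log2 difference -0.64, SE 0.13, adjusted p = 0.0128). Without replicate 1 of 25 weeks Cry2 was not called. The output factor Dbp had -0.76 (adjusted p = 0.179).

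**Figure D5:**
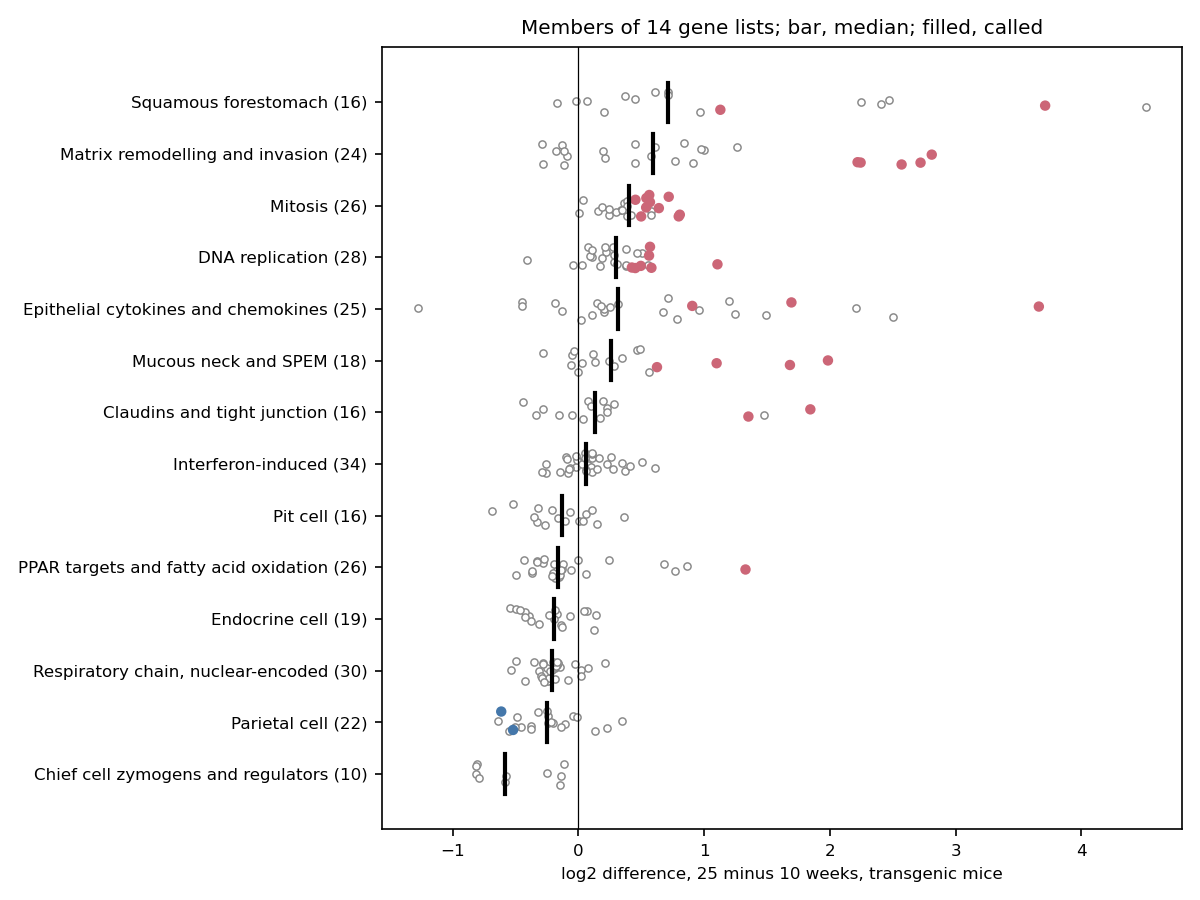
Log2 difference between 25 and 10 weeks in transgenic mice for each tested member of 14 gene lists (number tested in brackets), with the median as a bar; filled points are called, red higher and blue lower. The squamous and matrix medians rest on a wide spread with a few large rises, the mitosis genes lie together above 0, and the chief cell genes all lie below 0 without a call.

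Among genes that fell, Setd4, a protein of the SET-domain methyltransferase family (chr16:93583457-93604063, minus strand), had the lowest adjusted p of all genes tested. It was at 29.8, 29.9, 20.4, 24.2 and 23.8 CPM in the younger mice and 11.9, 14.3, 12.9 and 14.5 CPM in the older ones. The older mice lay together at a level below every younger mouse, and the log2 difference was -0.93 (SE 0.11, adjusted p = 8.17e-05). Cbr1 and Cbr3, carbonyl reductase genes that lie beyond its start on the other strand (chr16:93605853-93610505 and chr16:93683215-93690990), also fell, by 0.58 and 0.46 on the log2 scale (adjusted p = 0.0242 and 0.049). Gm5678, a predicted gene between them (chr16:93628097-93630451), had a log2 difference of -0.62 and did not pass (adjusted p = 0.0727). All 3 were picked as neighbours after the value of Setd4 was seen. The calls of Cbr1 and Cbr3 were lost in 5 and 7 of the 9 fits that left out 1 mouse, and that of Cbr3 also with the GC correction (adjusted p = 0.177). The annotated spans of these genes do not overlap, and the libraries do not mark strand. Setd4 was called in each fit that left out 1 mouse and with the GC correction (log2 difference -0.86).

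Epb41l3, a membrane skeleton protein (chr17:69075683-69289989), had the largest fall among the named genes, from 1.64, 1.56, 2.09, 1.49 and 1.71 CPM to 0.287, 0.684, 0.269 and 0.298 CPM (log2 difference -2.15, SE 0.29, adjusted p = 3.12e-04). Replicate 2 was the highest of the older mice and still below every younger one, and this call too held in each of those fits. Npc1l1, the cholesterol uptake transporter, was at 11.6 ± 3.18 CPM and 4.35 ± 1.87 CPM (log2 difference -1.42, SE 0.35, adjusted p = 0.0288), and Eln, elastin, at 10.3 ± 2.5 CPM and 4.21 ± 1.28 CPM (-1.28, SE 0.31, adjusted p = 0.0295). Neither was called with the GC correction or without replicate 4 of 25 weeks. B4galnt3, which adds N-acetylgalactosamine to glycans, fell from 554, 515, 469, 496 and 546 CPM to 344, 300.1, 246 and 231 CPM (log2 difference -0.88, SE 0.18, adjusted p = 0.0123), and was not called without replicate 4 (adjusted p = 0.0505).

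Prima1, which anchors acetylcholinesterase, was at 31.8 ± 2.98 CPM and 15.2 ± 5.17 CPM (-1.05, SE 0.27, adjusted p = 0.0343), and Gsdma, a pore-forming gasdermin, at 2.38 ± 0.416 CPM and 1.11 ± 0.209 CPM (-1.09, SE 0.25, adjusted p = 0.0224). Cyp2d10 and Cyp2d12, cytochromes P450 from a family of near-identical genes, fell by 1.07 and 1.12 on the log2 scale (adjusted p = 0.0319 and 0.0461), and their split of reads is uncertain. Phgr1 and Srcin1, the latter an inhibitor of the Src kinase, each fell by 0.90 (adjusted p = 0.0214 and 0.0403). Hist1h2al, a histone H2A gene, fell by 1.13 (adjusted p = 0.0165); such transcripts mostly lack a poly(A) tail, which this library type selects for. Itpka, an inositol trisphosphate kinase, and Ptpn23, a phosphatase of endosomal sorting, fell by 0.55 and 0.47 (adjusted p = 0.00872 and 0.0136) with no overlap between ages. Both were called in each fit that left out 1 mouse but not with the GC correction (adjusted p = 0.0851 and 0.0987). Nor were Prima1, Cyp2d10, Cyp2d12 and Srcin1 called with that correction (adjusted p = 0.0755, 0.071, 0.0784 and 0.112).

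In WT littermates few genes passed the same test over the same step of age. With 5 and 4 mice 2 genes were called (0.0126%) and 594 had an unadjusted p under 0.05 (3.76%), against 445 and 3517 (22.2%) in the transgenic mice. Both called genes are mast cell tryptases: Tpsab1 went from 4.92 ± 1.31 CPM to 16.3 ± 3.78 CPM and Tpsb2 from 2.12 ± 0.646 CPM to 5.87 ± 1.19 CPM (adjusted p = 0.0078 and 0.0316). DESeq2 called 3 genes and limma-voom 1 in WT mice, against 1146 and 2961 in transgenic ones. WT replicates 2 and 3 of 10 weeks were the closest pair of libraries within these 4 groups (chi-square per degree of freedom 3.949, against 15.72 to 96.03 within the transgenic groups). Both were kept as separate mice because the labels number them as separate samples. They differed by more than sampling noise, which does not show that they come from different mice. WT replicate 3 of 25 weeks is marked in the table's header as a replacement and carries no library group.

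The difference between the 2 age changes was tested itself. It passed for 1 gene (0.00632%), and 1810 had an unadjusted p under 0.05 (11.4%). That gene was Setd4: it was at 24.6 ± 1.84 CPM (SD, n = 5) and 25.6 ± 2.13 CPM (SD, n = 4) in WT mice, and the transgenic change exceeded the WT change downwards by a log2 difference of -1.0 (SE 0.16, adjusted p = 0.0109). DESeq2 called 48 genes and limma-voom 76 for this difference. For Mmp12 the difference was 3.02 (SE 0.81), for Sftpd 2.53 (SE 0.65), for Nap1l1 0.83 (SE 0.18) and for Top2a 0.67 (SE 0.19), and none of them passed (adjusted p = 0.227, 0.227, 0.163 and 0.24). The median log2 difference in WT mice was -0.11 for the mitosis list, -0.10 for the matrix list and -0.13 for the chief cell list, beside 0.40, 0.59 and -0.58 in transgenic mice. The parietal, mast cell, macrophage and fibroblast lists also had medians of the same sign in both genotypes. They were -0.14, 1.22, 0.31 and 0.24 in WT mice, beside -0.25, 0.34, 0.14 and 0.23 in transgenic mice. The Setd4 call of the difference was lost when library totals alone were used for scaling, with a term for library group and when replicate 1 of 25 weeks was left out, and without replicate 3 of 25 weeks 32 genes were called. Scaling by library totals moved the median of all genes for this difference to 0.115.

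At 55 weeks several of the genes named above stood further from their 10-week level, given here as levels only because all 55-week libraries belong to the second library group and share no group with the 25-week ones. Setd4 was at 8.69 ± 0.932 CPM (SD, n = 5), Cldn2 at 194 ± 41.7 CPM (SD, n = 5), Sftpd at 142 ± 24.4 CPM (SD, n = 5) and Cd44 at 230.4 ± 39.3 CPM (SD, n = 5). Pigr, at 49.1 ± 15.5 CPM and 158 ± 115 CPM before, was at 5728 ± 1308 CPM (SD, n = 5), and Pgc at 683 ± 404 CPM (SD, n = 5). A few were not on that course: Npc1l1, which had fallen by 25 weeks, was at 23.5 ± 8.35 CPM (SD, n = 5), Klf6 at 155 ± 22.8 CPM (SD, n = 5) against 273 ± 68.3 CPM at 25 weeks, and Ccne2 at 3.48 ± 0.678 CPM (SD, n = 5) against 3.9 ± 0.57 CPM.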

How the data were processed

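RNA was extracted with Trizol and poly-A selected libraries were made with a kit that does not mark strand and sequenced as 75-bp pairs, per the labels' protocols. The authors deposited raw read counts per gene symbol in 1 table. TopHat2 2.0.14, HTSeq 0.6.1, DESeq2 and build mm10 are named in the submitters' processing notes. The counts of 28 libraries were fitted together with edgeR 4.0.16 (R 4.3.3): genes filtered by group, TMM scaling, quasi-likelihood F tests with robust dispersion and group means. The filter used all 28 libraries, so a gene could pass on its counts in groups outside the comparison. The 3 contrasts were the age change in transgenic mice, in WT mice, and their difference. Levels are CPM with TMM-scaled totals. The script was tested on simulated counts.

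Named genes were 24 set genes, per direction the 12 largest non-overlapping called changes with at least 1 CPM and the 8 lowest adjusted p, up to 4 genes of each of 40 lists, the lead genes of the other contrasts, and those marked as picked later. The members and lists were chosen with earlier results of these data known. Positions and GC content are from GENCODE M21 (GRCm38) and promoters from RefSeq. Alternatives covered scaling, filtering, design, DESeq2 1.42.0, limma-voom 3.58.1 with sample weights and leaving out each mouse. Every sample column of the table was used. A gene that the naming rule gives is not reported here.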

Additional observations from a re-analysis of the deposited data

Results flagged for a closer look

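In 14 of the 252 sets of 4 or 5 mice looked at, 1 mouse lay apart from the rest of its group, where chance gives about 1 in 20. The value is the gap to the nearest mouse as a share of the group's range on the log2 scale. At 25 weeks replicate 3 was the low mouse for Epcam (0.946), Scarna17 (0.939) and Areg (0.91). Replicate 4 of 25 weeks was the high mouse for Anxa8 (0.873) and the low one for Smc2 (0.869), and replicate 2 the high one for Epb41l3 (0.901). At 10 weeks replicate 1 was the low mouse for Ifi202b (0.895), Mmp13 (0.742) and Rrm2 (0.724) and the high one for Ptpn23 (0.732). Replicate 2 was the high mouse for Cdc6 (0.757), replicate 5 for Muc6 (0.722) and replicate 4 for Klra4 (1), while replicate 4 was the low one for Pdk4 (0.762). The age change of Setd4 differed between the genotypes by -1.0 on the log2 scale in a test of the difference itself.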

How the results depend on the processing

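In place of 445 transgenic calls, 483 were made with DESeq2's size factors, 436 with the groups compared fitted alone, 914 with library size alone, 246 with no filter on low counts, 123 in the first library group only, 208 with a term for library group, 1146 with DESeq2, 2961 with limma-voom, 188 with the GC correction and 111 at 2-fold or more. Of the 436 calls of the groups compared alone, 277 were among the 445, and of the 83 named calls 55 held there. That fit had 0 calls in the mucous neck and SPEM list, 0 among the cytokines and chemokines, and 2 in the matrix list. Leaving out single mice gave 64 to 1862. The first library group only means here that the second-group libraries of 10 weeks were left out in both genotypes. Second-group libraries of older mice and the WT replacement stayed in that fit. In WT mice the 2 calls became 1 with library size alone, the groups compared alone, the first library group only, limma-voom or the GC correction, 0 with a term for library group, and 0 to 2 without single mice. For the difference of age changes the 1 call became 0 with library size alone, with a term for library group or at 2-fold or more, 29 in the first library group only, 48 with DESeq2, 76 with limma-voom, and 0 to 32 without single mice. The labels do not say that replicate numbers pair mice of different ages, so the main fit has no replicate block. Same-numbered mice of 10 and 25 weeks had correlations of 0.087, 0.043, 0.12 and 0.096, and differently numbered ones -0.177 to 0.109. Such values cannot decide whether the mice are paired. A replicate block gave 299 calls in transgenic mice, 143 together with the GC correction, 1 in WT mice and 1 for the difference. Over 122 named genes and 20 alternatives, direction turned for Muc6 alone, which was not called: its difference was 0.0673 with library size alone, 0.0118 with the block, 0.1025 in the first library group, 0.0556 with the GC correction, 0.098 with that and the block, and -0.3186 to 0.1473 without single mice. Without single mice the difference in total counts ran from -2937000 to 107000 and that in genes detected from -384 to 11.87. The cause of these shifts was not tested. Replicate 4 of 25 weeks, with the fewest counts, limits the precision of genes of low level.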
